A study of Drosophila melanogaster with 26 samples.

Results

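The genes described here encode the subunits of the 26S proteasome, which degrades proteins marked with ubiquitin. They are the genes whose symbol begins with Pros, Rpn or Rpt, Prosap left out, and 41 of the 15340 genes in the deposited tables met this rule. Of these, 28 encode the main subunits: 7 of the alpha ring, 6 of the beta ring, 5 ATPases of the base and 10 non-ATPase subunits. The other 13 are copies whose current symbol carries a T or an R, 4 of alpha ring, 5 of beta ring, 3 of ATPase and 1 of non-ATPase genes, and these are described apart.

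The proteasome has a barrel-shaped core particle and a cap, the regulatory particle. Alpha rings gate the barrel and beta rings carry the proteolytic sites inside it, while the Rpt ATPases unfold substrates and the Rpn subunits bind and remove ubiquitin or hold the cap together. Every cell type uses the complex, and in flies several subunits have a further copy that is known from the testis.

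RNA came from whole Drosophila melanogaster ovaries, soma included, in which nanos-GAL4 drove a hairpin in the germline. The hairpin targeted white in the control (Bloomington stock 35573), or nsl1 (Bloomington 58328), nsl2 (Bloomington 58162) or nsl3 (Vienna 108002 in the labels) of the nonspecific lethal (NSL) complex, a transcriptional regulator. Each of the 4 groups had 3 libraries. All groups, the control included, carried the driver, whose stock also holds UAS-Dcr-2 and the w1118 allele according to the methods, and the females were fed yeast for 3 to 5 days before dissection. Only 1 hairpin line was used for each gene, the fly list of the methods names another Vienna stock for nsl3, and the study describes the NSL1 and NSL3 RNAi ovaries as rudimentary. Virgin females are named there as the control of both these knockdowns, but the control columns match the record that is not virgin. Virgin controls were not analysed here.

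Values are normalised reads: reads of a gene divided by the size factor of its library. The methods state size factors from ERCC spike-ins, but the factors behind these values are exactly those of a median-of-ratios scaling on the rows of each table, so a fold change is relative to those rows and not to added RNA. White RNAi libraries held 20820820 to 23021900 reads. The knockdowns were shallower on the whole, with 14507550 to 16699905 (NSL1), 14868717 to 20911687 (NSL2) and 12482452 to 15127028 reads (NSL3). The targeted transcripts fell in their own knockdowns, nsl1 (wah in the tables) by 0.88, nsl2 (dgt1) by 0.54 and nsl3 (Rcd1) by 0.92 on the log2 scale. They also fell in other knockdowns: dgt1 was at -1.19 in NSL1 RNAi and -0.97 in NSL3 RNAi, below its -0.54 in NSL2 RNAi. Rcd1 was at -0.82 in NSL1 RNAi and -0.30 in NSL2 RNAi, and wah at -0.55 in NSL3 RNAi. A fold change here is the difference of group means of log2(value + 1), tested with limma across all rows of a table with a mean of at least 10 normalised reads. A call needs an adjusted p under 0.05 (Benjamini-Hochberg) and a change of over 2-fold, and the calls without the fold minimum are given beside these.

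Summed transcripts of cell type markers differed between the groups, and their part in the results below was not tested. Markers are counted as called without the fold minimum. Over all genes tested, that rule called 48.0% lower and 41.1% higher in NSL1 RNAi and 18.6% and 16.1% in NSL2 RNAi. In NSL3 RNAi it called 43.2% and 37.0%. With at most 7 genes tested per list, small counts such as 1 of 3 are not read as results. The 7 germline markers, such as nos and vas, summed to 68781 to 71680 normalised reads in white RNAi libraries and to 16309 to 19448 in NSL1 RNAi libraries, with 6 of the 7 called lower. In the NSL3 RNAi table the sums were 62331 to 65392 for white RNAi, against 11661, 36936 and 19574 for replicates 1, 2 and 3 of the knockdown, with 5 called lower and 1 higher. In the NSL2 RNAi table, the sum of 64333 to 68623 in the knockdown was below the 74826 to 76135 of white RNAi, with 3 lower and 1 higher. The 7 muscle markers summed to 930 to 1175 reads in white RNAi and to 111949 to 146158 in NSL1 RNAi, and 6 of the 6 tested were called higher. In NSL3 RNAi the muscle sum was 123791 to 245434, against 849 to 1065 in white RNAi, and again 6 of 6 were higher. In NSL2 RNAi it was 1593 to 2528 reads, against 995 to 1279, and 5 of 6 were higher. Hemocyte markers were higher in 3 of 3 cases in NSL1 and in NSL3 RNAi and in 1 of 3 with NSL2 RNAi. Tested neuron markers, in the order NSL1, NSL2 and NSL3 RNAi, were higher in 3 of 3, 0 of 1 and 3 of 3. Follicle cell markers were called higher, in the same order, in 7 of 7, 6 of 7 and 6 of 6. Their sum was 100246 to 153012 reads in NSL1 RNAi, against 10502 to 22113 in white RNAi. In the NSL2 RNAi table the sum was also far above the control, at 85279 to 193729 against 11240 to 24056. In that of NSL3 RNAi it was 63702 to 77513 against 9596 to 20039. Fat body markers were called higher, in the same order, in 3 of 3, 1 of 1 and 1 of 1. Fat body markers summed to at most 4.27 reads in any white RNAi library. They reached the minimum mean only where the knockdown was high, so a tested one could only come out higher. The same can hold for neuron markers, of which more were tested in NSL1 and NSL3 RNAi than in NSL2 RNAi. In such bulk samples, fewer cells of a type and less RNA per cell cannot be told apart.

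Transcripts of the main subunits made up a smaller share of the reads of genes in NSL1 and NSL3 RNAi ovaries. The share was 0.740%, 0.754% and 0.684% in the white RNAi libraries, a mean of 0.726% ± 0.037 (SD, n = 3). NSL1 RNAi libraries had 0.557%, 0.548% and 0.533%, and NSL3 RNAi libraries 0.410%, 0.576% and 0.445%. Every library of both knockdowns lay below every white RNAi library, and NSL3 RNAi replicate 2 stood apart from the other 2 libraries of its group. NSL2 RNAi libraries had 0.702%, 0.742% and 0.755%, within or next to the range of white RNAi. Means of the knockdowns were 0.546% ± 0.012 (NSL1), 0.733% ± 0.027 (NSL2) and 0.477% ± 0.088 (NSL3). Counting error was small beside these differences, with a Wilson 95% interval of 0.529% to 0.536% for NSL1 RNAi replicate 3 and of 0.681% to 0.688% for white RNAi replicate 3. Such intervals cover counting error only.

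**Figure D1:**
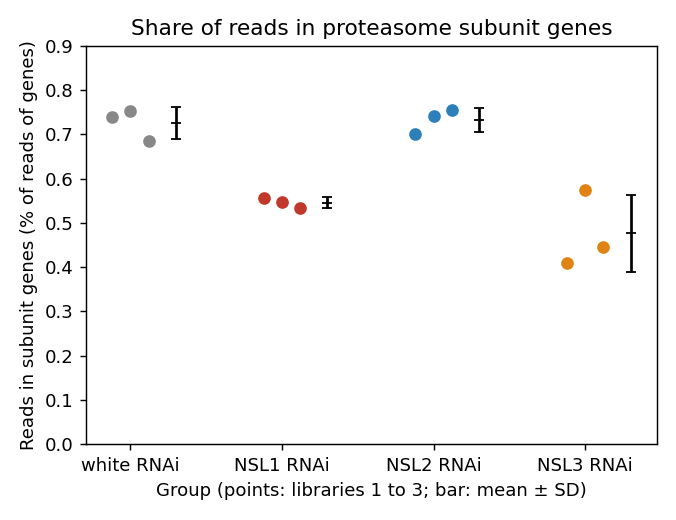
Reads in the 28 main proteasome subunit genes as a percentage of all reads of genes (vertical axis) in each of the 12 libraries (points), by group, with the mean and SD of each group as a black bar. The NSL1 and NSL3 RNAi libraries lie between 0.410% and 0.576%, all below the lowest white RNAi library at 0.684%.

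Of the 41 genes, 28 reached the minimum mean and were tested: 27 main subunits and the copy Rpt3R. The remaining main subunit, Prosalpha1, was listed at 0 reads in all 12 libraries, as was CG30382, which the current annotation calls Prosalpha1R. Since Prosalpha1 is part of every proteasome, this 0 is not read as absence of its RNA. Levels of different subunits are not compared, because transcript lengths were not used here.

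In NSL1 RNAi ovaries all 27 main subunits that were tested fell, each by less than 2-fold. With no fold minimum, 27 of 27 were called lower and 0 higher, where 48.0% of the 9083 genes tested were called lower and 41.1% higher. By edgeR 27 were called lower, and by DESeq2 21, without Rpn1, Rpn7, Rpn9, Rpt1, Rpt3 and Rpt4. Both tools scaled the reads anew, so their calls differ from those of limma in scaling as well as in test. The median log2 fold change of the 27 was -0.49, which is 0.712 times the control, and the values ran from -0.72 to -0.21. Over all genes tested, the median was -0.13, with quartiles of -0.86 and 2.11. The subunits thus lay between the lower quartile and the median of all genes, and their SD of 0.16 was small beside the 2.23 of all genes. The latter includes genes with few reads, so these SDs are not matched for level. The libraries of both groups did not overlap for any of the 27, where 48.9% of genes tested were lower and 41.6% higher without overlap. Past the 2-fold minimum, 0 of the 27 were called by limma, edgeR or DESeq2, against 20.4% of genes lower and 31.8% higher, while 27 had an unadjusted p under 0.05 in limma. Scaling over genes alone, in place of the deposited size factors, moved the median of all genes to 0.02 and that of the subunits to -0.35, with 22 called lower.

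In NSL3 RNAi ovaries 26 of the 27 fell, again by less than 2-fold. The exception was the ATPase Rpt3, and 0 were called higher, where 43.2% of the 8898 genes tested were called lower and 37.0% higher. By edgeR 23 were called lower, without Rpn1, Rpn6 and Rpt4 as well, and DESeq2 also lost Rpn2, which left 22. The median was -0.60, or 0.662 times the control, with a range of -0.86 to -0.25, and over all genes it was -0.12. For 25 of the 27, every knockdown library lay below every white RNAi library (background 46.9% lower and 38.9% higher). The exceptions were Rpt3 and Rpt4. Past the 2-fold minimum, 0 of the 27 were called by limma, edgeR or DESeq2 (background 14.6% lower and 29.6% higher), and 26 had an unadjusted p under 0.05. Without NSL3 RNAi replicate 2, 27 of 27 were called lower, the median was -0.73 and 1 gene, Pros28.1, passed the 2-fold minimum. Leaving out another library gave 19 to 26. Scaling over genes alone moved the median of all genes to -0.02 and that of the subunits to -0.49, with 23 called lower.

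In NSL2 RNAi ovaries none of the 27 main subunits was called in either direction, where 18.6% of the 8045 genes tested were called lower and 16.1% higher. By limma 1 of the 27, Rpn12, had an unadjusted p under 0.05, edgeR called 0, and DESeq2 called 3 higher, Pros35, Rpn12 and Rpn7. Log2 fold changes ran from -0.10 to 0.17, with standard errors of 0.05 to 0.08, and the median was 0.03 against -0.04 over all genes. Libraries did not overlap for 1 subunit that was lower and 3 that were higher (background 29.4% and 23.4%). With the 2-fold minimum the count was also 0 by limma, edgeR and DESeq2 (background 1.17% lower and 8.46% higher). All 3 knockdowns were compared with the same 3 white RNAi libraries, of which replicate 3 had the lowest value for each of the 27 subunits.

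**Figure D2:**
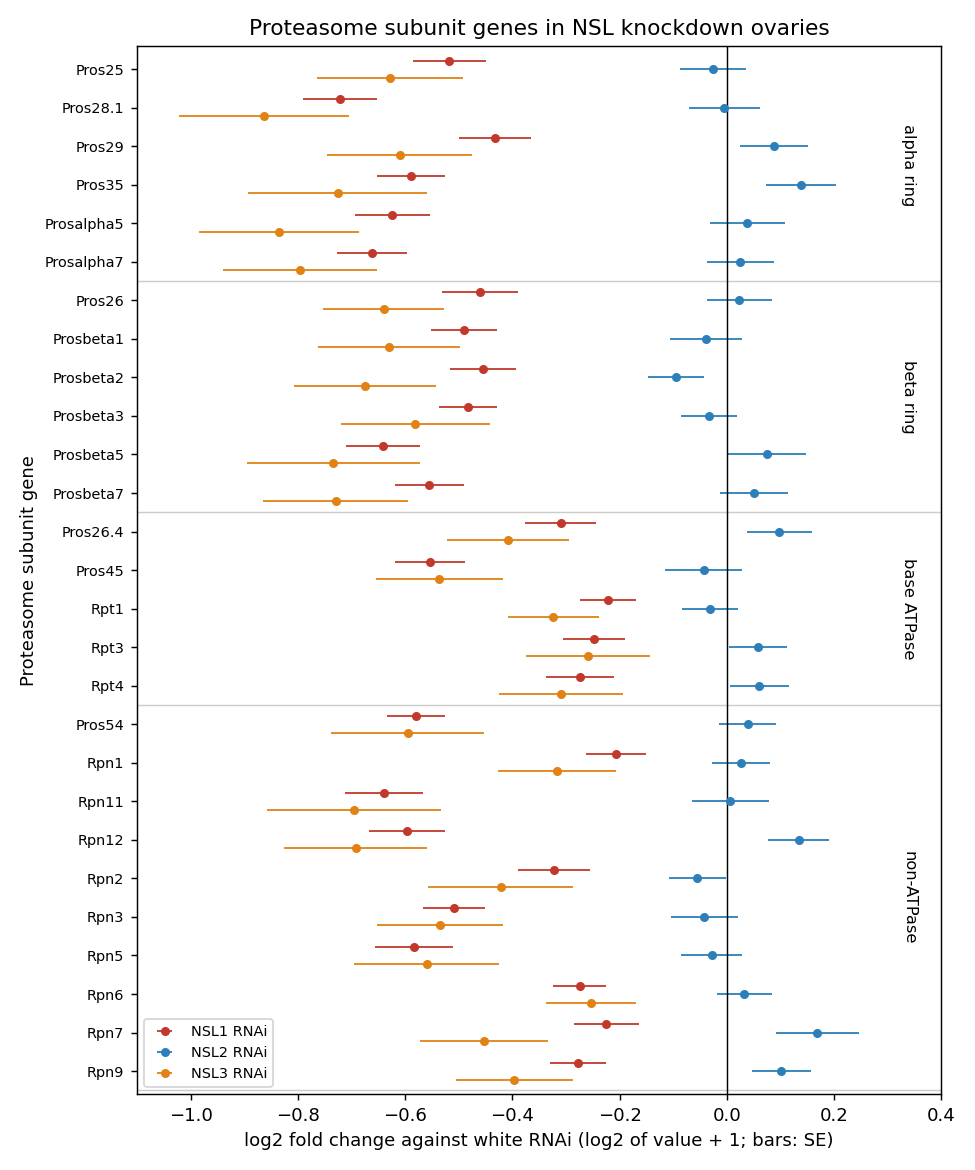
Log2 fold change against white RNAi (horizontal axis, points, with the standard error as a bar) of the 27 tested main subunit genes (vertical axis), grouped by role, for NSL1, NSL2 and NSL3 RNAi with 3 libraries a group. NSL1 and NSL3 RNAi values lie between -0.86 and -0.21, and NSL2 RNAi values between -0.10 and 0.17.

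Among the alpha subunits, which form the outer rings of the barrel, 6 of 6 tested fell in NSL1 RNAi and 6 of 6 in NSL3 RNAi, with medians of -0.61 and -0.76. Pros28.1, now named Prosalpha4, had the lowest value of the 27 in both. It was at 5660, 5705 and 4861 normalised reads in white RNAi and at 3370, 3270 and 3179 in NSL1 RNAi, a log2 fold change of -0.72 ± 0.07 (SE, adjusted p = 9.7e-06, limma). In the NSL3 RNAi table it was at 5171, 5205 and 4405 in white RNAi and at 2349, 3408 and 2460 in the knockdown (-0.86 ± 0.16, adjusted p = 0.0022). The knockdown libraries were below all controls, with NSL3 RNAi replicate 2 above its group. In NSL2 RNAi the gene had 5582, 5788 and 5914 against 6057, 6023 and 5288, so the groups overlapped.

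Pros29 (Prosalpha3) fell least among the alpha subunits. It was at 4303, 4625 and 3944 in white RNAi and at 3326, 3066 and 3135 in NSL1 RNAi (-0.43 ± 0.07, adjusted p = 0.00025). The NSL3 RNAi libraries had 2267, 3069 and 2395 against 3931, 4219 and 3574 (-0.61 ± 0.14, adjusted p = 0.0047). No library overlapped with the other group in either comparison. In NSL2 RNAi, Pros25 (Prosalpha2) had the lowest value of the ring, with 4720, 4912 and 4980 against 5058, 5236 and 4597 in white RNAi (-0.03 ± 0.06). Pros35 (Prosalpha6) had the highest, with 6251, 6731 and 6770 against 6192, 6215 and 5548. Its NSL2 RNAi libraries were all above the controls, by 0.14 ± 0.06 on the log2 scale, but this was not called by limma (adjusted p = 0.13).

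The beta subunits hold the catalytic sites, and 6 of 6 fell in both NSL1 RNAi (median -0.49) and NSL3 RNAi (median -0.66). Prosbeta5, the chymotrypsin-like subunit, fell most of the 6 in both. It went from 6254, 6291 and 5338 reads in white RNAi to 3794, 3867 and 3772 in NSL1 RNAi (-0.64 ± 0.07, adjusted p = 2.0e-05). In the NSL3 RNAi table it went from 5714, 5739 and 4837 to 2808, 4125 and 2976 (-0.73 ± 0.16, adjusted p = 0.0044). All knockdown libraries were below the controls, those of NSL1 RNAi close together and those of NSL3 RNAi spread by replicate 2. In NSL2 RNAi the 6321, 6730 and 7084 reads overlapped with the 6693, 6641 and 5807 of white RNAi (0.07 ± 0.07).

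Prosbeta1, the caspase-like subunit, was at 3396, 3330 and 2974 in white RNAi and at 2295, 2334 and 2263 in NSL1 RNAi (-0.49 ± 0.06, adjusted p = 5.7e-05). NSL3 RNAi libraries had 1708, 2270 and 1766 against 3103, 3038 and 2695 (-0.63 ± 0.13, adjusted p = 0.0037). Both knockdowns lay wholly below their controls. NSL2 RNAi libraries, with 3157, 3391 and 3561 against 3635, 3516 and 3236, overlapped with white RNAi (-0.04 ± 0.07).

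Prosbeta2, the trypsin-like subunit, was at 3804, 4113 and 3680 in white RNAi and at 2988, 2761 and 2713 in NSL1 RNAi (-0.45 ± 0.06, adjusted p = 0.00010). NSL3 RNAi libraries had 1952, 2654 and 2060 against 3476, 3752 and 3335 (-0.68 ± 0.13, adjusted p = 0.0028). In NSL2 RNAi it had the lowest value of all 27, with 3858, 3807 and 3951 against 4071, 4341 and 4003. These libraries were below all controls by a small margin, and the difference of -0.10 ± 0.05 was not called (adjusted p = 0.18). Prosbeta3, a structural beta subunit, had the highest value of the ring in NSL3 RNAi, with 2115, 2953 and 2253 against 3635, 3824 and 3391 (-0.58 ± 0.14, adjusted p = 0.0065).

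The 5 tested ATPases of the base, which unfold substrates, had smaller median changes than the rings, at -0.27 in NSL1 RNAi and -0.32 in NSL3 RNAi. All 5 fell in NSL1 RNAi and 4 of 5 in NSL3 RNAi. Rpt5 (Tbp-1), also an ATPase of the base, falls outside the naming rule and is not among them. It fell by 0.48 and 0.54, more than both medians. Pros45 (Rpt6) had the lowest value of the 5 in both, below Pros26.4 (Rpt2) at -0.31 ± 0.07 in NSL1 RNAi and, by about the standard error, at -0.41 ± 0.11 in NSL3 RNAi. It went from 4131, 4287 and 3752 reads to 2902, 2750 and 2635 in NSL1 RNAi (-0.55 ± 0.06, adjusted p = 3.8e-05). NSL3 RNAi took it from 3775, 3911 and 3400 to 2299, 2943 and 2432 (-0.54 ± 0.12, adjusted p = 0.0046). Its knockdown libraries were below all controls in both tables, and NSL2 RNAi libraries overlapped with theirs at 3848, 4418 and 4393 against 4421, 4526 and 4082.

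Rpt1 had the smallest change of the base in NSL1 RNAi, from 4986, 5153 and 4786 to 4439, 4107 and 4254 (-0.22 ± 0.05, adjusted p = 0.0032). The groups did not overlap, although the gap was small, and the call was lost with DESeq2 (adjusted p = 0.32) and with a scaling over genes alone (adjusted p = 0.15). Rpt3 was the subunit without a call in NSL3 RNAi, with 2224, 2821 and 2338 against 2983, 3085 and 2735 (-0.26 ± 0.12, adjusted p = 0.071). Only replicate 2 of the knockdown reached into the range of the controls, and without it the adjusted p was 0.0022. In NSL2 RNAi, Pros26.4 (Rpt2) had the highest value of the base, with 5724, 6150 and 5889 against 5677, 5765 and 5167, and the groups overlapped (0.10 ± 0.06).

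The non-ATPase subunits split most widely. All 10 fell in both knockdowns, with medians of -0.42 in NSL1 RNAi and -0.49 in NSL3 RNAi, and their ranges were -0.64 to -0.21 and -0.70 to -0.25. Rpn11, the metalloprotease that removes ubiquitin from substrates, fell most. It was at 4870, 4861 and 4141 in white RNAi and at 3062, 2996 and 2827 in NSL1 RNAi (-0.64 ± 0.07, adjusted p = 3.1e-05). With NSL3 RNAi it was at 4449, 4434 and 3753 in white RNAi and at 2170, 3261 and 2464 in the knockdown (-0.70 ± 0.16, adjusted p = 0.0058). The groups did not overlap in either case.

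Rpn1, a scaffold of the base that binds ubiquitin carriers, changed least in NSL1 RNAi, from 7527, 7567 and 6929 to 6520, 6515 and 6052 (-0.21 ± 0.06, adjusted p = 0.0071). This call was lost with DESeq2 (adjusted p = 0.47) and with the scaling over genes alone (adjusted p = 0.26), where its log2 fold changes were -0.04 and -0.06. Rpn6, a lid subunit that contacts the core particle, changed least in NSL3 RNAi, from 6308, 6410 and 5848 to 4946, 5516 and 5123 (-0.25 ± 0.08, adjusted p = 0.026). All knockdown libraries were below the controls, but its call was lost without white RNAi replicate 1 or 2, or without NSL3 RNAi replicate 1 or 3, at adjusted p-values of 0.062 to 0.11. In NSL2 RNAi, Rpn2, another scaffold of the base, had the lowest value of the group, with 8362, 8498 and 8229 against 9064, 8651 and 8358 (-0.05 ± 0.05). Rpn7, a lid subunit, had the highest, with 3914, 4569 and 4556 against 4077, 3874 and 3628. Replicate 1 of the knockdown overlapped with the controls, and the difference of 0.17 ± 0.08 was not called (adjusted p = 0.12), while without that library its adjusted p was 0.023.

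The median of the core particle lay below that of the base ATPases in each NSL1 and NSL3 RNAi library. These medians are of the log2 ratio to the mean of white RNAi, over the alpha and beta ring genes and over the 5 ATPase genes. The ATPase Rpt5 (Tbp-1), with larger falls than these 5 have at their median, is not included. The difference, core particle minus ATPases, was -0.33, -0.24 and -0.25 in NSL1 RNAi replicates 1, 2 and 3, and -0.45, -0.18 and -0.37 in those of NSL3 RNAi. In the white RNAi libraries of these tables the same difference lay between -0.03 and 0.02, and in NSL2 RNAi libraries between -0.08 and 0.03. This is a description over subunits, which are not replicates, and was given no test. Over all 27 subunits the median log2 ratio was -0.46, -0.52 and -0.51 in the NSL1 RNAi libraries and -0.77, -0.33 and -0.70 in those of NSL3 RNAi. NSL3 RNAi replicate 2, with the smallest change, was also the library with the highest sum of germline markers and the lowest of muscle markers in its group (36936 and 123791 normalised reads). In white RNAi the medians lay between -0.12 and 0.08 and in NSL2 RNAi between -0.01 and 0.05.

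**Figure D3:**
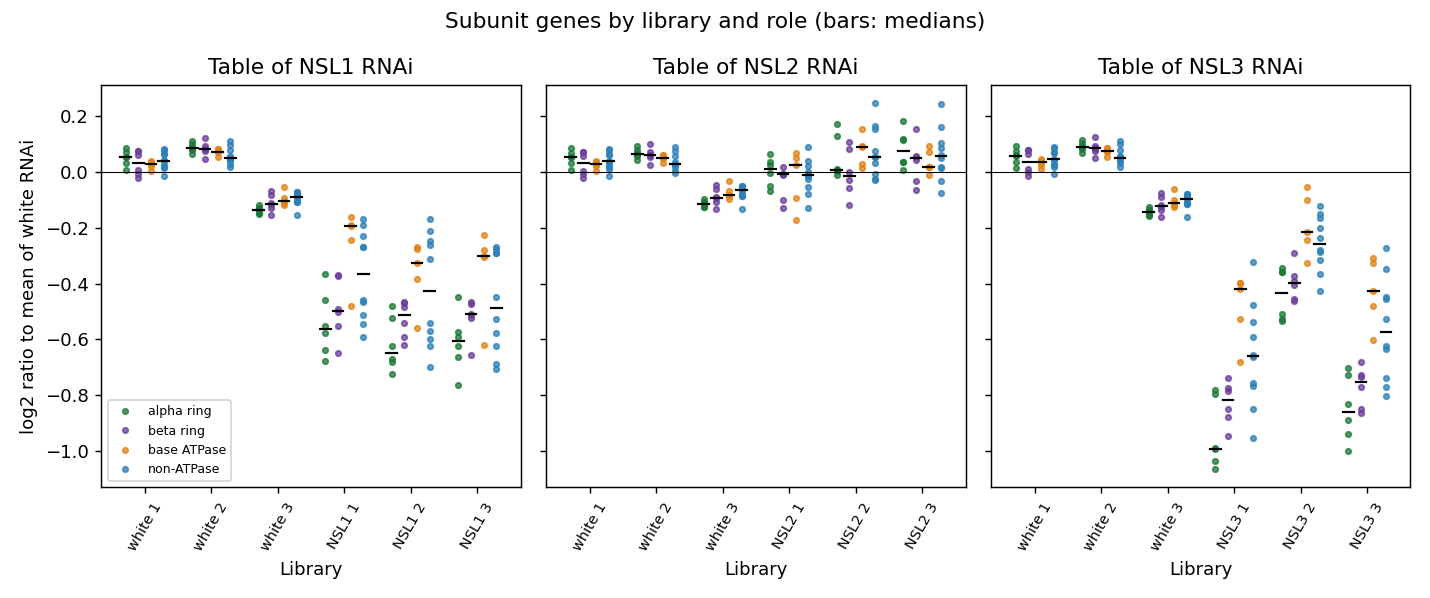
Log2 ratio of each main subunit gene to its mean in white RNAi (vertical axis) in each library (horizontal axis), coloured by role, with the median of each role as a bar, in the table of each knockdown. The base ATPases shown do not include Rpt5 (Tbp-1). The medians of the alpha and beta rings lie lowest and that of the base ATPases highest in every NSL1 and NSL3 RNAi library, although single genes overlap, and the median over all 27 genes in NSL3 RNAi replicate 2 is -0.33 against -0.77 and -0.70 in the others.

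The subunits lie on all of the large chromosome arms and fell on each. In NSL1 RNAi the medians by arm were -0.59 for 3 genes on 2L, -0.49 for 7 on 2R, -0.46 for 5 on 3L, -0.40 for 8 on 3R and -0.41 for 4 on X. In NSL3 RNAi they were -0.70, -0.63, -0.64, -0.51 and -0.42. On X the range was wide, since Pros28.1 with the lowest value and Rpt3 with one of the highest both lie there.

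A direct comparison of the knockdowns set the differences between them against the spread within groups, pooled over all 12 libraries. The reads of these libraries were scaled together and fitted in 1 model. Between NSL1 and NSL2 RNAi, 23 of the 27 main subunits were lower in NSL1 RNAi and 0 higher, where 41.0% of 9069 genes were called lower and 39.0% higher. The 4 without a call were Rpn1, Rpn2, Rpt1 and Rpt3, and the median difference was -0.34. Rpn12, a lid subunit, had the largest (-0.59 ± 0.09, adjusted p = 0.00012) and Rpt1 the smallest (-0.05 ± 0.06, adjusted p = 0.52). Between NSL3 and NSL2 RNAi, 27 of 27 were lower in NSL3 RNAi, against a background of 39.9% lower and 38.0% higher, with a median of -0.48. Prosalpha5 had the largest difference (-0.76 ± 0.10, adjusted p = 5.0e-05) and Rpn6 the smallest (-0.17 ± 0.06, adjusted p = 0.020). With the 2-fold minimum, 0 of the 27 were called in either contrast by limma or edgeR. The backgrounds of that rule were 13.2% lower and 29.2% higher for NSL1 against NSL2 RNAi, and 8.9% and 27.6% for NSL3 against NSL2 RNAi.

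Between NSL1 and NSL3 RNAi, 2 of the 27 were called, both higher in NSL1 RNAi, where 23.5% of genes were called lower and 14.1% higher. They were Prosbeta2 (0.25 ± 0.09, adjusted p = 0.045) and Rpn7 (0.26 ± 0.09, adjusted p = 0.041). The median difference over the 27 was 0.13, and limma gave 6 an unadjusted p under 0.05. This count rested on single libraries. It was 19 without NSL3 RNAi replicate 2 and 0 without any other 1 of the 6 libraries of these knockdowns. With the 2-fold minimum, 0 main subunits were called by limma or edgeR (background 5.28% lower and 5.8% higher).

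Of the 13 copies, 12 stayed under the minimum mean in every table, and Rpt3R, a copy of the ATPase gene Rpt3, was tested. Rpt3R was at 31.9, 29.9 and 25.2 normalised reads in white RNAi and at 28.1, 23.4 and 32.4 in NSL1 RNAi, where the groups overlapped (-0.06 ± 0.25, adjusted p = 0.84). In the NSL3 RNAi table it went from 29.1, 27.3 and 22.9 to 58.0, 52.2 and 67.1. Every knockdown library was above every control, as for 38.9% of the genes tested. The log2 fold change was 1.13 ± 0.25 (adjusted p = 0.0043), and Rpt3R was the only member past the 2-fold minimum in any comparison with white RNAi. In NSL3 RNAi 29.6% of genes were called higher past that minimum. Rpt3R lay at percentile 70.7 of the fold changes of all genes, so its rise is not read as particular to this copy. In the NSL2 RNAi table it went from 34.1, 31.6 and 27.5 to 50.2, 57.5 and 49.9. These libraries too were above all controls, as for 23.4% of genes, with a log2 fold change of 0.74 ± 0.20 (adjusted p = 0.026). Without the fold minimum 16.1% of genes were called higher there. The call of Rpt3R was lost with DESeq2 (adjusted p = 0.059). It was also lost when any 1 of the 6 libraries other than NSL2 RNAi replicate 3 was left out (adjusted p = 0.050 to 0.083).

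In the NSL3 RNAi libraries Rpt3R rose while 26 of the 27 main subunits fell, and Rpt3 itself was at -0.26 without a call. The log2 difference of Rpt3R, NSL1 minus NSL3 RNAi, was -1.16 ± 0.22 (adjusted p = 0.0023), past the 2-fold minimum, and NSL1 minus NSL2 RNAi it was -0.66 ± 0.22 (adjusted p = 0.016). The latter call was lost without replicate 2 of NSL1 or of NSL2 RNAi. Between NSL3 and NSL2 RNAi the difference was 0.50 ± 0.22 (adjusted p = 0.053). These values rest on 103 reads over the 3 white RNAi libraries and on 72, 146 and 138 reads over those of NSL1, NSL2 and NSL3 RNAi.

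The copies Rpt4R and Rpt6R had most of their reads in NSL1 and NSL3 RNAi. Rpt4R, a copy of the ATPase gene Rpt4, had 0 reads in all 3 white RNAi libraries, against 14, 4 and 21 in NSL1 RNAi and 28, 1 and 10 in NSL3 RNAi. Set against a control floor of 3 reads over the group, the ratio was 18.0 in NSL1 RNAi and 21.5 in NSL3 RNAi. The floor allows for counting error in the control only. Reads of the knockdown were taken as exact, so these ratios are not lower bounds. The libraries of 1 group differed widely, and NSL3 RNAi replicate 2 had a single read. With 1 library left out, the ratio to this floor ran from 11.7 to 23.7 in NSL1 RNAi. In NSL3 RNAi it ran from 9.03, without NSL3 RNAi replicate 1, to 33.4, without replicate 2. Without white RNAi replicate 2 it was 11.7 and 14.0, since less control depth stood behind the floor. NSL2 RNAi libraries had 0, 1 and 1 reads.

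Rpt6R had 2, 1 and 0 reads in white RNAi and 10, 18 and 19 in NSL1 RNAi, a ratio of 21.7 after scaling (exact 95% counting interval 7.0 to 109). In NSL3 RNAi it had 8, 6 and 12 reads (ratio 14.3, interval 4.39 to 73.9), and in NSL2 RNAi 2, 3 and 3 (ratio 3.19, interval 0.765 to 18.7). Without white RNAi replicate 1, which leaves 1 control read, the ratios were 43.9 in NSL1 RNAi and 29.0 in NSL3 RNAi. Knockdown libraries of NSL1 and NSL3 RNAi were all above the controls. Prosbeta2R2 had 1, 1 and 2 reads in white RNAi and 4, 7 and 8 in NSL1 RNAi (ratio 6.59, interval 2.19 to 26.6). In NSL3 RNAi it had 0, 5 and 4 reads and in NSL2 RNAi 3, 5 and 1, which overlapped with the controls. The remaining 9 copies had at most 3 reads in any library, and Prosbeta5R had 0 in all 12.

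**Figure D4:**
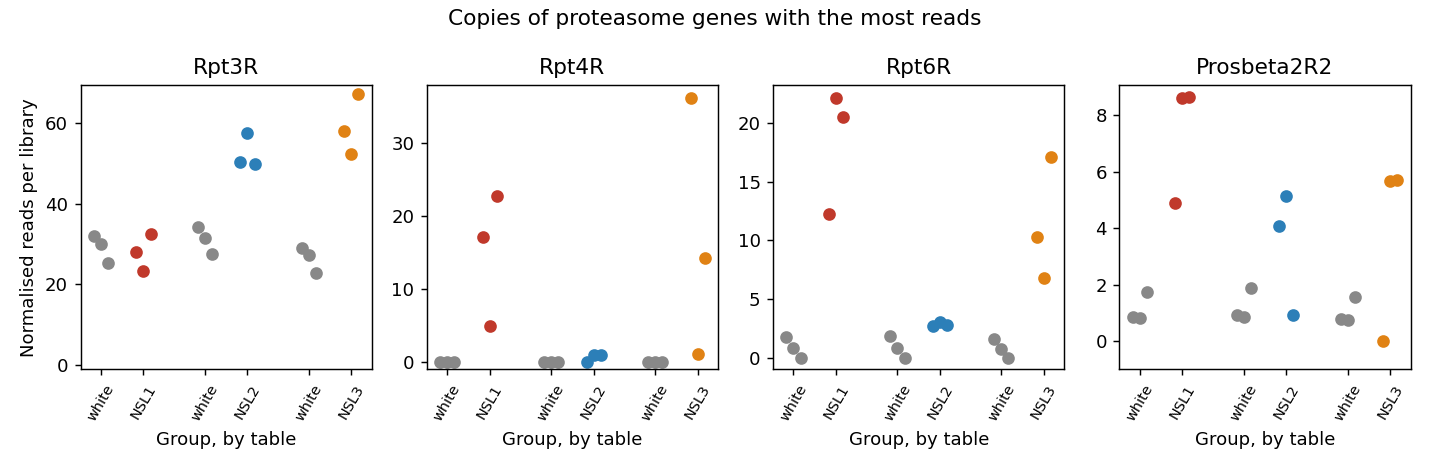
Normalised reads (vertical axis, one scale per gene) of the copies Rpt3R, Rpt4R, Rpt6R and Prosbeta2R2 in each library (points) of white RNAi (grey) and of the knockdown in its table. Rpt3R is higher in NSL2 and NSL3 RNAi but not in NSL1 RNAi, while Rpt4R and Rpt6R have their highest values in NSL1 and NSL3 RNAi.

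Of the 9 testis markers 2 were tested, and they moved in opposite directions. The gene fzo, which is needed for mitochondrial fusion in spermatids, rose by 3.34 in NSL1 RNAi and by 2.58 in NSL3 RNAi on the log2 scale. The other, the phosphatase gene twe, which is also used in the female germline, was at -2.97 and -1.95. The sum over the 9 was lower in NSL1 and NSL3 RNAi than in white RNAi, but it mostly follows twe. Markers not tested stayed under a mean of 10 and fzo rose, so the lower sum is not read as a fall of testis transcripts. The sum was at 3908 to 4508 reads in white RNAi and 634 to 762 in NSL1 RNAi, and at 3541 to 4112 and 762 to 1914 in the NSL3 RNAi table. In the NSL2 RNAi table the sums were 4251 to 4758 and 3172 to 4086, and Mst84Da, Mst84Db, Mst98Ca and Mst98Cb were at 0 in its 6 libraries. The part of testis transcripts in the reads of the copies was not tested.

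Some subunits carry other symbols and were not part of the rule. Tbp-1 (Rpt5), Mov34 (Rpn8) and CG13779 (Sem1) all fell in NSL1 RNAi, by 0.48, 0.47 and 0.78, and in NSL3 RNAi, by 0.54, 0.53 and 0.79, and none of the 3 was called in NSL2 RNAi. CG17331 (Prosbeta4) and CG13349 (Rpn13), added after their values were seen, fell by 0.74 and 0.40 in NSL1 RNAi and by 0.90 and 0.43 in NSL3 RNAi. Rpn13R (CG6789), added likewise, had 1, 3 and 4 reads in white RNAi and 11, 18 and 24 in NSL1 RNAi (ratio 9.19, exact 95% counting interval 4.34 to 22.4). NSL3 RNAi libraries had 10, 9 and 18 reads (ratio 7.64, interval 3.50 to 19.0), and NSL2 RNAi libraries 5, 4 and 0.

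The wider list of ubiquitin, ubiquitin-like and proteasome genes held 65 genes, of which 63 were tested. In NSL1 RNAi 49 of them were called lower and 4 higher with no fold minimum, in NSL3 RNAi 46 and 3, and in NSL2 RNAi 6 and 2. Over all genes tested, the shares lower and higher were 48.0% and 41.1% in NSL1, 43.2% and 37.0% in NSL3 and 18.6% and 16.1% in NSL2 RNAi. The share of the list called lower was thus above that of all genes in NSL1 and NSL3 RNAi and below it in NSL2 RNAi, and the share called higher was below it in each. Counts of the single lists that follow stand against the same shares. Medians were -0.48, -0.54 and -0.03. The list holds genes with many other roles, and a share of its members is known for use in the germline.

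Of the 8 assembly chaperones and regulators, 6 fell and 1 rose in both NSL1 and NSL3 RNAi. The lowest was CG2046 (PSMG1), a chaperone of alpha ring assembly, at 1410, 1500 and 1264 reads in white RNAi and 646, 676 and 666 in NSL1 RNAi (-1.07 ± 0.08). In NSL3 RNAi it had 591, 893 and 557 against 1289, 1368 and 1146 (-0.93 ± 0.19), and both knockdowns lay below all their controls. In NSL2 RNAi the 1463, 1430 and 1570 reads overlapped with the 1509, 1583 and 1375 of white RNAi. Pomp, which matures the beta rings, fell by 0.41 and 0.64 in NSL1 and NSL3 RNAi. CG8858 was the highest of the list in each comparison, and rose by 0.37 ± 0.06, 0.52 ± 0.08 and 0.43 ± 0.09 in NSL1, NSL2 and NSL3 RNAi. REG, which encodes an activator that caps the core particle, was not called in NSL1 RNAi (-0.01 ± 0.06) but fell in NSL3 RNAi (-0.69 ± 0.09), and the difference between these knockdowns was 0.71 ± 0.08.

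The ubiquitin genes moved in opposite directions. The polyubiquitin gene Ubi-p63E rose from 2367, 2374 and 2345 reads to 4210, 3448 and 4069 in NSL1 RNAi (0.72 ± 0.08), and from 2163, 2166 and 2125 to 3868, 2728 and 3793 in NSL3 RNAi (0.67 ± 0.14). The other polyubiquitin gene, Ubi-p5E, fell from 4714, 4872 and 4589 to 2617, 2500 and 2756 in NSL1 RNAi (-0.85 ± 0.05), and from 4308, 4445 and 4159 to 2363, 2050 and 2507 in NSL3 RNAi (-0.90 ± 0.10). Neither overlapped with white RNAi in these comparisons, and neither was called in NSL2 RNAi. RpL40, a fusion of ubiquitin and a ribosomal protein, rose by 0.20 in NSL1 RNAi but fell by 0.22 in NSL3 RNAi, and RpS27A, another such fusion, was called only in NSL3 RNAi, where it fell by 0.25. The 2 fusions are ribosomal protein genes as well.

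The 9 activating and conjugating enzymes include Uba2, Uba3 and lwr, which serve ubiquitin-like proteins. Of the 9, 8 fell and 1 rose in NSL1 RNAi, and 6 fell and 1 rose in NSL3 RNAi. In NSL2 RNAi 3 fell, Uba2 and lwr among them, and 0 rose. The lowest was vih, a conjugating enzyme of the anaphase-promoting complex, at -1.53 ± 0.08, -0.30 ± 0.07 and -1.21 ± 0.22 in NSL1, NSL2 and NSL3 RNAi, a fall in all 3. UbcD6 rose by 0.34 ± 0.05 and 0.70 ± 0.13 in NSL1 and NSL3 RNAi. Of the 18 tested receptors, deubiquitinases and segregase genes, 17 fell in NSL1 RNAi, with Uch, a deubiquitinase, lowest at -1.16 ± 0.08, and 16 in NSL3 RNAi. There the lowest was Uch-L3 (Uch-L5), a deubiquitinase of the proteasome cap, at -1.18 ± 0.21. CSN7 of the COP9 signalosome, a complex related to the proteasome lid, was not called in either (-0.01 ± 0.07 and -0.12 ± 0.11).

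Of 17 tested ligase core genes, 12 fell in each of NSL1 and NSL3 RNAi and 0 rose, where 48.0% and 43.2% of all genes fell. The lowest in both was cort, an activator of the anaphase-promoting complex known from the female germline. It went from 1411, 1421 and 1333 reads to 141, 135 and 117 in NSL1 RNAi (-3.40 ± 0.10), and from 1290, 1297 and 1208 to 255, 663 and 243 in NSL3 RNAi (-1.87 ± 0.37). Again NSL3 RNAi replicate 2 was the highest of its group, and all knockdown libraries were below the controls. Cul-3, a cullin, was the highest of the list in NSL1 RNAi at 0.11 ± 0.05, without a call.

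Of the 4 genes known to regulate transcription of proteasome genes, 2 fell in NSL1 RNAi, a share near the 48.0% of all genes, so this count is no result about these regulators. In NSL3 and NSL2 RNAi 0 were called, and limma gave 0 and 2 an unadjusted p under 0.05. The transcription factor gene cnc fell by 0.19 ± 0.07 in NSL1 RNAi and was at 0.07 ± 0.08 in NSL3 RNAi, and its partner maf-S was at -0.06 ± 0.08 and 0.05 ± 0.15. Pngl, a deglycosylase, fell by 0.37 ± 0.12 in NSL1 RNAi and was at -0.05 ± 0.10 in NSL3 RNAi. Keap1, the inhibitor of cnc, was at 0.16 ± 0.09 and -0.19 ± 0.15. Of these 4, only cnc and Pngl in NSL1 RNAi passed the test in any comparison with white RNAi.

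**Figure D5:**
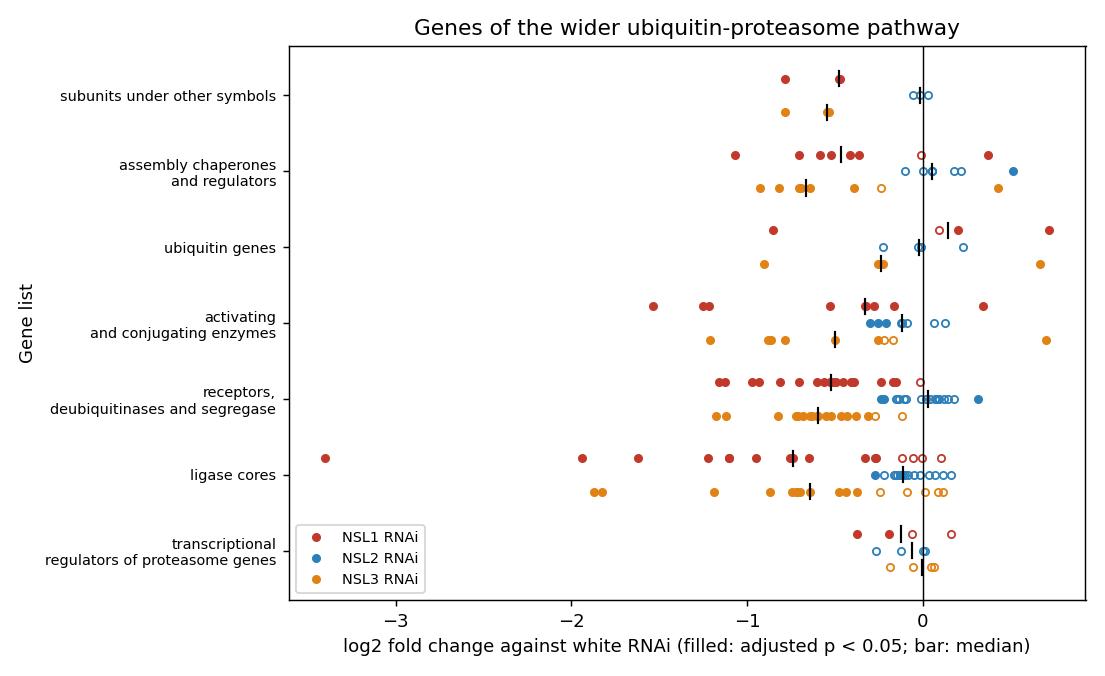
Log2 fold change against white RNAi (horizontal axis) of the 63 tested genes of the wider pathway, by list (vertical axis), for NSL1, NSL2 and NSL3 RNAi. Filled points have an adjusted p under 0.05 in limma and black bars are medians, and cort has the lowest value at -3.40 in NSL1 RNAi.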

How the data were processed

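For each knockdown the authors deposited 1 table of signal values: the reads of each gene, transposon insertion, repeat or piRNA cluster over a size factor of the library. The authors depleted ribosomal RNA, aligned stranded total RNA reads with STAR inside piPipes and counted them with featureCounts or eXpress, while DESeq2 and dm3 appear in the submitters' processing notes; versions and the strand used in counting are not given in the sources used here. The authors' own columns hold a mean, log2 fold changes with their standard errors and statistics, and p-values of DESeq2, and were not used. Tables hold 72525 rows, and 0 columns of library values went unused. Dividing by each library's smallest step gave whole reads, within 1e-06 reads, for 100% of values, and white RNAi reads differ between tables in 0 cells. The methods state ERCC spike-in size factors, but the tables hold 0 ERCC rows, and the recovered factors match a median-of-ratios scaling computed on every row of a table within 7.8e-14%.

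Each table was fitted with limma 3.58.1 (R 4.3.3, mean-variance trend) on log2(value + 1), 3 libraries against 3, over all genes, summed transposon families, repeats and clusters whose mean reached 10, with Benjamini-Hochberg adjustment over all of them. Knockdowns were compared on the recovered reads of all 12 libraries, scaled together by the median of ratios. The 3 libraries of a group are numbered in the columns and come, by the authors' account, from separate crosses; the sample records number only 1 of them. Alternatives were edgeR 4.0.16, DESeq2 1.42.0, other scalings, pseudocounts of 0.5 and 5, no minimum or a minimum mean of 50, adjusted p under 0.01, a replicate block and each library left out. The edgeR and DESeq2 runs estimated their own scaling factors from the recovered reads and did not keep the deposited ones. Leaving out libraries from the read ratios of the copies was chosen after seeing the data. Intervals of read ratios are exact and conditional on the total. The ratios of Rpt4R to a floor of control reads have no interval.

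Values are given for the 3 catalytic subunits, for the lowest and highest fold change of each role in each comparison, for each copy that was tested and, by counts, for a wider list of the pathway with its lowest or highest genes; the other genes named were chosen after their values were seen. Marker lists cover germline, follicle cells, muscle, fat body, hemocytes, neurons and testis. Members, lists and tests were chosen with earlier results of these data known. Python 3.11.15, numpy 2.4.6, pandas 2.3.3, scipy 1.17.1 and matplotlib did the rest. Symbols were matched to RefSeq names, for 41 of 41 members.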

Additional observations from a re-analysis of the deposited data

Results flagged for a closer look

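The difference between knockdowns itself passed its test for most main subunits. Without a fold minimum, 23 of 27 differed between NSL1 and NSL2 RNAi and 27 of 27 between NSL3 and NSL2 RNAi, all lower in NSL1 or NSL3 RNAi. Over all genes tested, 41.0% were called lower and 39.0% higher in the first contrast, and 39.9% and 38.0% in the second. Most genes thus differed as well, while all calls among the subunits were in the same direction. Their differences lay at percentiles 27.4 to 49.6 of those of all genes in the first contrast and 16.9 to 44.6 in the second. Whether other gene sets share such a direction was not tested. Between NSL1 and NSL3 RNAi, where 23.5% of all genes were called lower and 14.1% higher, 2 of 27 differed. They were Prosbeta2, by 0.25, and Rpn7, by 0.26 on the log2 scale, both higher in NSL1 RNAi. These calls were lost with edgeR (0 called) and without any 1 library of these knockdowns other than NSL3 RNAi replicate 2, without which 19 were called. The copy Rpt3R differed by -1.16 between NSL1 and NSL3 RNAi, with 28.1, 23.4 and 32.4 normalised reads in the former and 58.0, 52.2 and 67.1 in the latter, each in its own table. Groups of 3 libraries are too small for a test of a single outlying library.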

How the results depend on the processing

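All 27 main subunits kept a negative log2 fold change in NSL1 and in NSL3 RNAi under each alternative run. With adjusted p under 0.01, 27 and 19 of them were called lower. The median of the 27 moved in NSL1 RNAi from -0.49 to -0.42 with edgeR, -0.33 with DESeq2, -0.35 with the median of ratios over genes and -0.45 with the total reads of genes. In NSL2 RNAi it moved from 0.03 to 0.062 with edgeR and 0.057 with DESeq2, and it changed sign, to -0.022, without white RNAi replicate 3. For NSL1 against NSL2 RNAi it moved from -0.34 to -0.27 with the median of ratios over genes. With 1 library left out, medians ran from -0.55 to -0.47 for NSL1, from -0.022 to 0.051 for NSL2 and from -0.73 to -0.51 for NSL3 RNAi against white RNAi. They ran from -0.38 to -0.32 for NSL1 against NSL2 RNAi.

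Counts here include Rpt3R and other copies that reach the minimum. Rpt6R reached it only through its NSL1 RNAi reads, with means of 0.84 in white RNAi and 18.3 in the knockdown. It could thus only come out higher. The calls added with no minimum mean are Rpt4R, Rpt6R and Prosbeta2R2 in NSL1 RNAi, and Rpt4R and Rpt6R in NSL3 RNAi. These copies had 0 to 2 reads in each white RNAi library, so the added calls are not read as results. With the 2-fold minimum, NSL1 RNAi had 1 call with the median of ratios over genes (Rpt6R) and 3 with no minimum mean, in place of 0. NSL3 RNAi had 3 with no minimum mean, 0 with a minimum of 50, which leaves Rpt3R out, and 1 to 2 with a library left out, in place of 1. NSL1 against NSL3 RNAi had 0 with a minimum of 50. Without the fold minimum, calls higher in NSL1 RNAi were 1 with the median of ratios over genes and 3 with no minimum mean. In NSL3 RNAi they were 3 with no minimum mean and 0 with a minimum of 50. In NSL2 RNAi they were 3 with DESeq2, 0 with no minimum mean, a minimum of 50, adjusted p under 0.01 or the replicate block, and 0 to 1 with a library left out. For NSL3 against NSL2 RNAi they were 1 with the median of ratios over genes or a pseudocount of 5, and 0 to 1 with a library left out. For NSL1 against NSL3 RNAi they were 0 with edgeR, 4 with the median of ratios over genes and 0 to 19 with a library left out, and calls lower were 0 with a minimum of 50. The cause of these changes was not tested.

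Replicate numbers did not pair the libraries: deviations of same-numbered libraries correlated at -0.14 to -0.01 for NSL1, -0.44 to 0.08 for NSL2 and -0.16 to 0.22 for NSL3 RNAi. With them as a replicate block, 27, 0 and 25 members were called lower in NSL1, NSL2 and NSL3 RNAi without the fold minimum. Shares of reads moved by less than 1 SD when all assigned reads were the denominator. Depth limits the copies most, since all but Rpt3R lie under 10 normalised reads on average, and with 3 libraries a group the smallest p of an exact test would be 0.10, so only models across all rows were used. Motifs in promoters and levels per transcript length, planned at first, were not run.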
